A study of Arabidopsis thaliana with 27 samples.

Results

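GIGANTEA (GI, locus AT1G22770, chromosome 1) is read on the ATH1 array by 1 probe set of 22810 in all, and its signal was followed in Arabidopsis stamens from untreated flowers to 22 h after jasmonate or its precursor. GI was selected with its values on these arrays in view. Its levels and differences are therefore given as a description with standard errors and intervals, and no p-value is attached to them. GI encodes a large plant protein of the circadian clock. In seedlings and leaves its transcript cycles daily with a peak late in the day, and the protein stabilises the F-box photoreceptor ZTL and works with FKF1 to remove the CDF repressors of CONSTANS, the promoter of long-day flowering. GI is also known for roles in light signalling and cold tolerance.

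The stamens came from opr3 plants, which lack the reductase that turns the cyclopentenone 12-oxophytodienoic acid (OPDA) into the precursors of jasmonic acid, a cyclopentanone with a shorter side chain. Such flowers are male-sterile unless jasmonate is supplied. Untreated opr3 stamens gave 3 arrays. Buds at flower stage 12 received JA or OPDA, each at 0.03%, and stamens were taken 0.5, 2, 8 or 22 h later, with 3 arrays per group except 2 for OPDA at 8 h. The groups named JA received methyl jasmonate according to their treatment notes. A single array of untreated stamens from Ws, the wild-type accession, stayed outside all fits. All plants grew in continuous light. The labels give hours after treatment but no hour of the day, and no mock-treated stamens were among the arrays. JA and OPDA arrays of 1 time thus share the time since treatment, whereas treated and untreated arrays differ in both treatment and time, and these cannot be told apart. Nothing in the labels says whether replicates came from separate plants, so the errors cover the spread between these samples, which may be technical.

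Several features of the arrays bear on what follows. Signals are the authors' linear MAS5 intensities, brought to a common target of 125, and array medians lay between 47.5 and 56.9. JA 0.5 h replicates 1 and 2 matched exactly at 100% of probe sets, against at most 0.943% for any other pair, and were counted as 1 array, which left 25 opr3 arrays in the fit. JA 2 h replicate 3 is titled opr2 although its treatment note says opr3. The GI differences at 2 h from untreated and from OPDA are given with and without it. All other results that use JA 2 h include it. None of the 4 fixed stamen identity genes was named in the probe annotation used here, so the tissue was checked through pollen and tapetum genes instead. The 5 pollen markers had summed levels from 2206 to 7910. Much of the sum was VEX1, which averaged 2300 of 3311 in untreated stamens, while ANX2 was low, with a mean of 42.1 at OPDA 0.5 h. Of 3 named tapetum genes ATA27 and EXL5 averaged 454 and 153 in untreated stamens, while A9 had group means of at most 10.2. In whole stamens, fewer cells of a type and less transcript per cell cannot be told apart.

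In untreated opr3 stamens the GI signal was 163.2, 144.9 and 189.2, a mean of 166 ± 22.3 (SD, n = 3). At 0.5 h after JA it was 133.9 on the array deposited as both replicates 1 and 2, and 196.2 on replicate 3, a pair that brackets the untreated arrays. At 2 h after JA it was 50.8, 71 and 111.7, a mean of 77.8 ± 31.0 (SD, n = 3), and the lowest value of the series is the first of these. The highest of the 3, replicate 3, is the array titled opr2, and all lay below every untreated array. GI stayed low at the later JA times. The values were 107.8, 88.4 and 102 at 8 h, a mean of 99.4 ± 9.96 (SD, n = 3). At 22 h they were 103.8, 94.4 and 118.3, a mean of 106 ± 12.0 (SD, n = 3). All 9 JA arrays from 2 to 22 h, between 50.8 and 118.3, were below the lowest untreated array. The share of probe sets separated in this way at each time is given below, and the share for all these times at once was not taken.

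OPDA gave a different course. At 0.5 h the GI signal was 130.2, 154.7 and 178.1 (154 ± 24.0, SD, n = 3), and at 2 h it was 121.7, 129.3 and 150.4 (134 ± 14.9, SD, n = 3). Both groups overlapped the untreated arrays. At 8 h replicate 1 reached 187.3 and replicate 3 reached 173.5, a mean of 180 ± 9.76 (SD, n = 2), the highest of the 9 opr3 groups. At 22 h the signal was 131.8, 94.6 and 140 (122 ± 24.2, SD, n = 3), all below the untreated arrays. The 8 OPDA arrays from 2 to 22 h ran from 94.6 to 187.3, and the JA arrays from those times from 50.8 to 118.3. The Ws array read 126, inside the range of the opr3 arrays, and with 1 array it has no error.

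**Figure D1:**
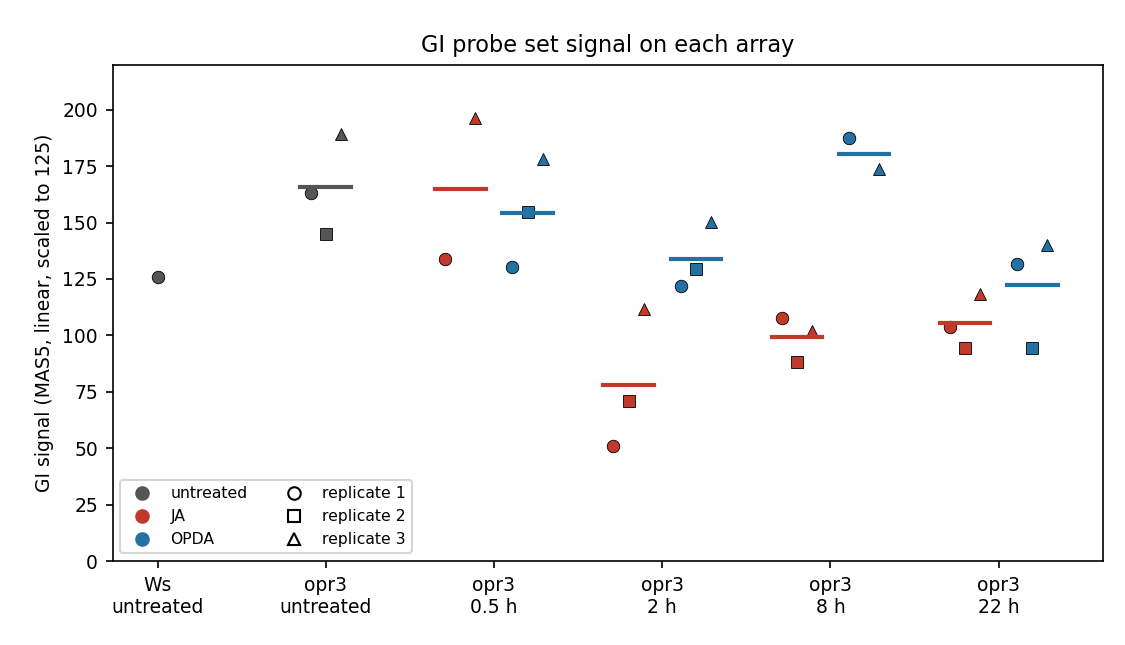
GI signal (MAS5 intensity, linear axis from 0) on each distinct array, by group and hours after treatment, with untreated arrays in grey, JA in red, OPDA in blue, marker shape for replicate number and a bar at each group mean. The 9 JA arrays from 2 to 22 h sit between 50.8 and 118.3, and the 3 untreated opr3 arrays between 144.9 and 189.2. The 2 OPDA arrays at 8 h sit at 173.5 and 187.3.

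Ordered by mean signal, GI ran from OPDA at 8 h through untreated, JA at 0.5 h, OPDA at 0.5 h, OPDA at 2 h, OPDA at 22 h, JA at 22 h and JA at 8 h down to JA at 2 h. The highest mean was 2.32 times the lowest. No pair of neighbours in this order was separated beyond its spread: all 8 neighbouring pairs overlapped, and their differences on the log2(signal + 16) scale ran from 0.02 to 0.35. The step of 0.35 between JA at 8 h and JA at 2 h had a 95% interval from -0.05 to 0.75. The spread of GI within groups, pooled over the fit, was an SD of 0.247 on that scale.

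GI read lower after JA than in untreated stamens at every time but the first. On the log2(signal + 16) scale, which understates changes of low signals, the difference was -0.02 (SE 0.215) at 0.5 h. It was -0.998 (SE 0.192, 95% interval -1.40 to -0.60) at 2 h, and -1.25 without the array titled opr2. It was -0.65 (interval -1.05 to -0.25) at 8 h and -0.58 (-0.98 to -0.18) at 22 h. The groups did not overlap at these 3 later times. Among the 14028 probe sets that passed the filter on low signal, 8.03% had all JA arrays below all untreated arrays at 2 h, 16.4% at 8 h and 33.4% at 22 h. The median of all tested probe sets was itself -0.21 at 22 h, and GI lay 0.37 below that median.

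With OPDA the differences from untreated were nearer 0 than with JA at 2, 8 and 22 h. They were -0.10 at 0.5 h, -0.28 at 2 h and 0.12 (SE 0.215, interval -0.33 to 0.56) at 8 h, with overlapping groups each time. At 22 h the difference was -0.40 (interval -0.80 to -0.01) and the groups did not overlap, as was the case in the same direction for 17.0% of tested probe sets. The interval only just leaves out 0. Leaving out single arrays moved this difference between -0.50 and -0.25, the latter without OPDA replicate 2, which read 94.6. The median of all tested probe sets was -0.09 in this comparison. The JA and OPDA differences share the same 3 untreated arrays and are set side by side for that reason only.

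The direct comparison of the 2 agents uses arrays of 1 time since treatment, with each agent at 0.03%, an equal percentage and not a matched molar dose. JA minus OPDA for GI was 0.08 (interval -0.37 to 0.52) at 0.5 h, -0.72 (-1.12 to -0.32) at 2 h, -0.77 (-1.22 to -0.32) at 8 h and -0.17 (-0.57 to 0.23) at 22 h. The agents thus parted at 2 and 8 h, where their arrays did not overlap, and overlapped at 0.5 and 22 h, where the intervals still allow differences of either sign. All JA arrays lay below all OPDA arrays for 8.58% of tested probe sets at 2 h and for 23.0% at 8 h, where OPDA had 2 arrays. Without the array titled opr2 the 2 h difference was -0.97. At 0.5 h its sign rests on single arrays: it was 0.33 without the array deposited as JA replicates 1 and 2, and fell to -0.17 without JA replicate 3.

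**Figure D2:**
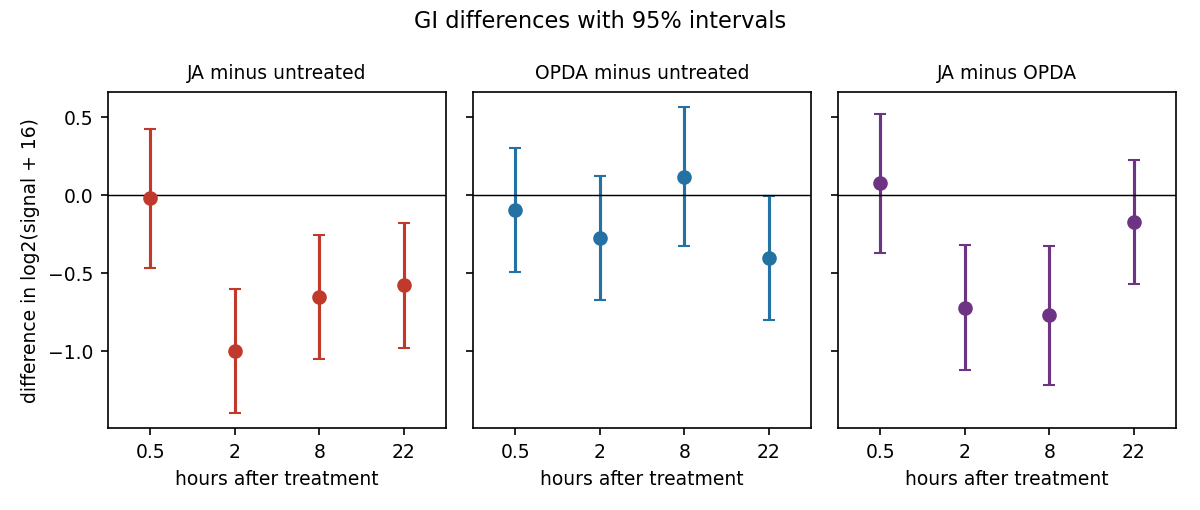
GI differences in log2(signal + 16) with 95% intervals from the fit over all probe sets (vertical axis) at 0.5, 2, 8 and 22 h after treatment (horizontal axis), for JA minus untreated, OPDA minus untreated and JA minus OPDA. The JA minus OPDA points lie at -0.72 and -0.77 at 2 and 8 h and nearer 0 at 0.5 and 22 h.

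Followed within 1 agent, GI had similar steps from 2 to 8 h after JA and after OPDA, while the steps before and after that differed in size. Whether the steps differ between the agents was not tested. After JA, the 2 h level was 0.98 below the 0.5 h level on the log2 scale (difference -0.98, interval -1.42 to -0.53), with no overlap. The later JA steps were 0.35 (interval -0.05 to 0.75) and 0.07 with overlapping arrays. After OPDA, the step from 0.5 to 2 h was -0.18 with overlap, the step from 2 to 8 h was 0.39 (interval -0.05 to 0.84) and that from 8 to 22 h was -0.52 (-0.97 to -0.08), both without overlap. Such separation in the same direction was found for 15.3% of tested probe sets for JA from 0.5 to 2 h, and for 8.77% and 23.3% for the OPDA steps, each of which has a group of 2 arrays. Averaged over both agents, the steps in GI were -0.58 from 0.5 to 2 h, 0.37 from 2 to 8 h and -0.22 from 8 to 22 h, and the 22 h level was -0.43 against 0.5 h (SE 0.144). With scan day as a block, which leaves 1 OPDA array at 8 h, the steps from 2 to 8 h and from 8 to 22 h were 0.13 and -0.14.

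The arrays were scanned on 5 days, and all 9 replicate 3 arrays on 1 of them. GI was highest in replicate 3 in 7 of 9 groups. The same count or more was met by 9.42% of tested probe sets, and the median probe set had its highest value there in 3 groups. Differences were therefore also taken between arrays of the same day. On the day of the replicate 3 arrays, JA minus OPDA was 0.13 at 0.5 h, -0.38 at 2 h, -0.68 at 8 h and -0.22 at 22 h. The JA array behind that 2 h value is the one titled opr2. On other days it was 0.04 at 0.5 h, -1.04 and -0.74 at 2 h, and -0.30 and -0.00 at 22 h. The 0.04 uses the array deposited as JA replicates 1 and 2, whose records give different scan days, so its day is not certain. That array read 133.9, against 130.2 for the OPDA array of the day recorded for replicate 1. The OPDA array of the day recorded for replicate 2 read 154.7, so the sign at 0.5 h depends on the day taken. JA was below OPDA at 2 h on each of 3 days, by 0.38 to 1.04. For 8 h only the day of replicate 3 has arrays of both agents, since OPDA 8 h replicate 1 has no scan record here.

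Against the untreated array of the same day, JA was lower at 2, 8 and 22 h on both days that hold one. On the replicate 3 day, JA minus untreated was 0.05, -0.68, -0.80 and -0.61 at 0.5, 2, 8 and 22 h, with the array titled opr2 at 2 h. On the other day with untreated arrays it was -0.96, -0.70 and -0.62 at 2, 8 and 22 h. OPDA minus untreated on the replicate 3 day was -0.08, -0.30, -0.11 and -0.40, and on the other day -0.22 at 2 h and -0.62 at 22 h. The OPDA 8 h group stood above the untreated mean in the pooled comparison. Replicate 3, its only array with a scan day, stood slightly below the untreated array of that day. No direction can be given for the group.

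**Figure D3:**
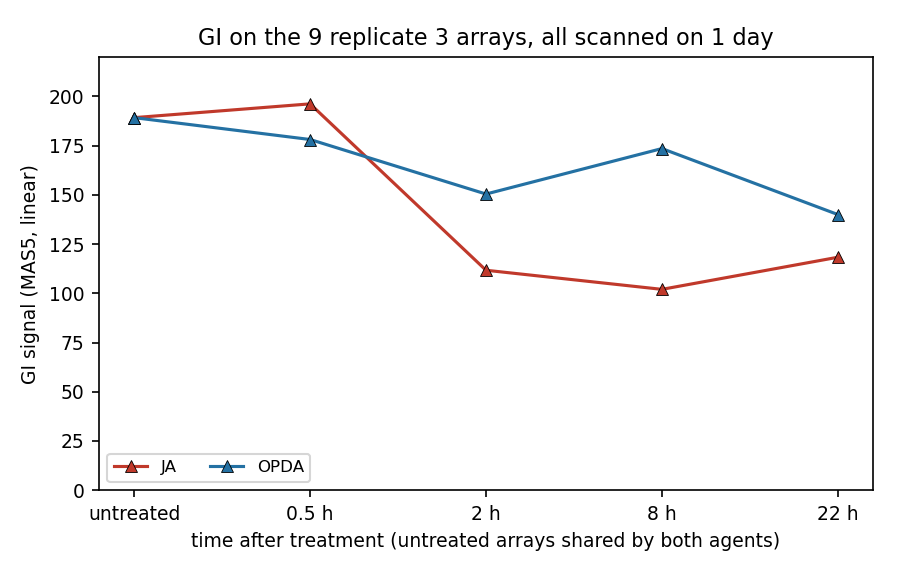
GI signal (MAS5 intensity, linear axis from 0) on the 9 replicate 3 arrays, which were scanned on 1 day, from untreated to 22 h after JA (red) or OPDA (blue). The lines start from the same untreated array at 189.2 and lie at 111.7 and 150.4 at 2 h and at 102 and 173.5 at 8 h for JA and OPDA, with 1 array per point and no error. The JA array at 2 h is the one titled opr2.

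Markers of cell types within the flower moved in some of these comparisons. At 2 h none of 5 pollen, 2 tapetum and 1 carpel markers was called between JA and OPDA or between JA and untreated, while 1 of 4 green tissue markers was lower in both comparisons, in which 1.90% and 2.22% of all tested probe sets were called. That marker, the antenna gene LHCB4.2, was at -0.73 against OPDA (adjusted p = 0.037) and -0.95 against untreated (adjusted p = 0.0032) by limma with Benjamini-Hochberg adjustment. Summed green tissue signal ran from 2473 to 2949 in JA, 2742 to 3665 in OPDA and 2526 to 3387 in untreated arrays at that time. At 8 h, JA over OPDA had 2 of 5 pollen markers higher, 1 of 2 tapetum markers lower and 1 of 4 green tissue markers lower, where 7.81% of all tested probe sets were called. Summed pollen signal was 3613 to 6900 with JA against 2797 to 3243 with OPDA, tapetum signal 42.5 to 462 against 340 to 986, and green tissue signal 2122 to 3155 against 3374 to 3882. At 22 h, 1 of 5 pollen markers, 3 of 4 green tissue markers and the carpel marker SPT were lower with JA than with OPDA (18.7% of all called). Against untreated stamens, JA at 8 h had 1 of 5 pollen markers higher and 2 of 2 tapetum markers lower (10.0% of all called). JA at 22 h had 4 of 5 pollen markers higher and 1, VEX1, lower, with 2 of 2 tapetum, 3 of 4 green tissue and the 1 carpel marker lower (39.6% of all called). OPDA at 22 h had 4 of 5 pollen markers higher and 1 of 2 tapetum and 1 of 4 green tissue markers lower (11.6% of all called). Summed pollen signal at 22 h was 4839 to 7204 with JA and 5135 to 7910 with OPDA, against 2711 to 3935 in untreated arrays. Summed tapetum signal was 21.7 to 55.8 and 57.8 to 164 against 247 to 804. The part of these cell type differences in the GI readings was not tested.

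The other genes of the clock could be followed only in part. Of 54 fixed genes of the morning, evening and output parts of the clock and of GI's partners, 4 were named in the probe annotation used here and tested, and the others, core genes such as CCA1, LHY and TOC1 among them, were not analysed here. The 4 were RVE6, a MYB activator of evening genes, CDF5, a DOF repressor that GI and FKF1 remove, SPY, a sugar transferase that binds GI, and TIC, a nuclear regulator of the clock. A further 14 clock, light, flowering and cold genes were picked by name from the array's annotation, of which 12 were tested and DNF and HYH did not pass the filter on low signal. With 16 genes in all, calls at an adjusted p under 0.05 in limma's fit to all 14028 probe sets are set beside the share called among all of them.

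Between JA and OPDA, none of the 16 was called at 0.5 h or 2 h, with 0 and 2 at an unadjusted p under 0.05, where 0.0713% and 1.90% of all probe sets were called. At 8 h 2 were lower (7.81% of all probe sets called), and at 22 h 1 was higher and 2 lower (18.7% called). All of these were cold-regulated genes. COR15A and COR15B, adjacent genes for chloroplast proteins that protect membranes in the cold, were lower with JA than with OPDA. COR15A read 1888 ± 184 (SD, n = 3) with JA against 5498 ± 1496 (SD, n = 2) with OPDA at 8 h, a log2 difference of -1.51 (SE 0.241, adjusted p = 0.00024). At 22 h it read 1271 ± 320.0 against 5181 ± 1425 (SD, n = 3 each), a difference of -2.01 (adjusted p = 4.4e-07). COR15B differed by -1.63 at 8 h (adjusted p = 0.00014) and by -1.48 at 22 h (adjusted p = 3.3e-05), in limma's fit. The pair are close relatives, and how far each probe set also reads the other is not known here.

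COR47, a dehydrin of the cold and drought response, went the other way. It read 7314 ± 1800 with JA at 22 h against 2456 ± 410 with OPDA (SD, n = 3 each), a log2 difference of 1.55 (SE 0.186, adjusted p = 1.9e-06 by limma). At 8 h it differed by -0.35 (interval -0.78 to 0.08). Among the 4 clock genes, the largest difference between the agents in size was 0.36 for CDF5 at 8 h, with an interval from -0.12 to 0.84, and none was called. COR27, a cold-induced gene that also acts in the clock, was at -0.59 in JA over OPDA at 2 h, where its arrays read 55.2 ± 35.8 and 84.9 ± 20.5 (SD, n = 3 each) and the adjusted p was 0.49 by limma.

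Against untreated stamens, the 16 genes had no calls after JA at 0.5 h or 2 h, with 0 at an unadjusted p under 0.05 both times (0.114% and 2.22% of all probe sets called). After JA, 2 were lower at 8 h (10.0% called), COR15A at -1.48 and COR15B at -1.33. At 22 h 1 was higher and 2 lower (39.6% called): COR47 at 1.91, COR15A at -2.08 and COR15B at -1.69. After OPDA there were no calls at 0.5, 2 and 8 h, with 0, 1 and 0 at an unadjusted p under 0.05 (0.00713%, 0.0214% and 0% called). No probe set at all was called at OPDA 8 h by limma, where 391 of 14028 had an unadjusted p under 0.05. At OPDA 22 h 1 was lower (11.6% called): SPY read 97.1 ± 19.2 against 143 ± 19.0 (SD, n = 3 each), a difference of -0.50 (adjusted p = 0.042). That call was lost in 5 of 11 alternative settings, with adjusted p from 0.017 to 0.14, and without 5 of the 6 arrays in turn, up to 0.19.

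Across harvest times with both agents averaged, none of the 16 was called from 0.5 to 2 h or from 2 to 8 h, with 0 and 2 at an unadjusted p under 0.05 (0.905% and 1.53% of all probe sets called). From 8 to 22 h 1 was higher (22.1% called), COR47 at 1.11 (adjusted p = 1.2e-05 by limma). From 0.5 to 22 h 2 were higher and 4 lower (43.5% called). CDF5 rose by 0.45 (adjusted p = 0.024), from 51.7 ± 10.1 to 86.1 ± 19.4 with OPDA and from 55.7 ± 19.7 (n = 2) to 72.9 ± 21.4 with JA (SD, n = 3 otherwise). COR47 rose by 1.11, while COR15A was at -1.09 and COR15B at -0.89, averages over agents that differ as given above. LIP1, a small GTPase that sets clock period in light, was at -0.30 (adjusted p = 0.028) and PHL, a phytochrome-dependent flowering regulator, at -0.30 (adjusted p = 0.035). The median of all tested probe sets over this step was -0.15 and that of the 16 genes -0.13. The calls of LIP1 and PHL were lost under other scalings of the arrays, with adjusted p of 0.17 and 0.18 after median centring, and that of CDF5 with scan day as a block (adjusted p = 0.13). Leaving out arrays in turn ended the CDF5 call in 5 of 11 cases, that of LIP1 in 6 and that of PHL in 5, with adjusted p up to 0.17, 0.094 and 0.30.

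**Figure D4:**
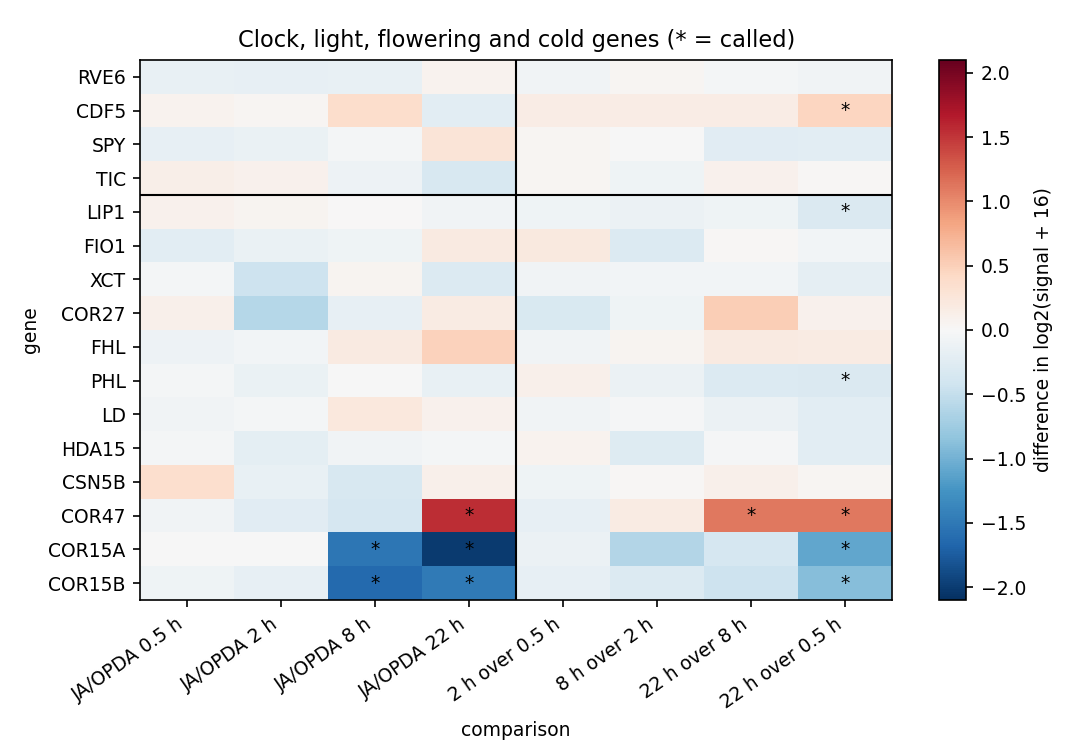
Difference in log2(signal + 16), on a colour scale from -2.1 to 2.1, for the 4 clock genes (above the line) and 12 added clock, light, flowering and cold genes, in JA over OPDA at 4 times (left) and between harvest times averaged over both agents (right). Stars mark an adjusted p under 0.05, and the COR15A, COR15B and COR47 fields carry the strongest colours, at -2.01 and 1.55 for COR15A and COR47 in JA over OPDA at 22 h.

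Likeness to GI was measured as Pearson's r of log2(signal + 16) over the 25 distinct opr3 arrays, across 7505 tested probe sets paired with 1 gene. These arrays share groups, scan days and scaling, so r is given as a description. The median r was 0.11, and the 1st and 99th percentiles were -0.58 and 0.62. The 8 highest were AT3G02770 (r = 0.80), AT3G03170 (0.78), AT2G45700 (0.77), AT3G07540 (0.76), AT1G17640 (0.76), AT4G35220 (0.75), EXPA16 (0.74), an expansin of the wall-loosening family, and AT3G52920 (0.73). Some of them had low signals. AT1G17640 had group means of at most 47.65, under the filter level of 50, and AT3G07540 read 23.2 ± 27.9 at JA 2 h (SD, n = 3). The 8 were chosen over the same arrays, so their group levels only show what the likeness consists of.

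AT3G03170 read 79.6 ± 7.21 in untreated stamens, 30.7 ± 2.55 at JA 2 h and 66.1 ± 15.4 at OPDA 2 h (SD, n = 3 each). EXPA16 read 62.1 ± 14.6 in untreated stamens, and at 8 h 25.1 ± 5.83 with JA (SD, n = 3) against 66.3 ± 7.14 with OPDA (SD, n = 2), a gap at the time when GI was highest with OPDA. AT3G02770 moved over a narrower range, from 119.5 ± 11.8 at JA 2 h (SD, n = 3) to 162 ± 1.27 at OPDA 8 h (SD, n = 2), which are also the lowest and highest groups for GI. Taken over the 11 JA arrays or the 11 OPDA arrays alone, r of the 8 ran from 0.48 to 0.80. The choice of measure matters: ranking by Spearman's rho kept 3 of the 8, and ranking over group means kept 2.

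The 4 genes most opposite to GI were AT5G54940 (r = -0.84), AT1G44790 (-0.78), AT5G44720 (-0.76) and TBL26 (-0.75), a member of the family that acetylates wall polysaccharides. AT5G54940 read 406 ± 27.0 in untreated stamens, 1231 ± 162 at JA 2 h and 529 ± 58.3 at OPDA 2 h (SD, n = 3 each). TBL26 read 444 ± 126, 1485 ± 240 and 558 ± 95.6 in the same groups. These 4 were chosen over the same arrays, so the levels and the r below only show what the opposite course consists of. All 4 stood high at JA 2 h, the group where GI was lowest, with differences from untreated between 1.42 and 1.82. For all 4, r was nearer 0 over the OPDA arrays than over the JA arrays. It was -0.54 for AT5G54940, -0.46 for AT1G44790, -0.21 for AT5G44720 and -0.23 for TBL26 over OPDA arrays, against -0.86, -0.72, -0.73 and -0.81 over JA arrays.

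Among the 16 list genes, COR27 and XCT, a regulator of clock period in light, had the highest r with GI, 0.56 and 0.55. Over JA arrays r was 0.75 for COR27 and 0.60 for XCT, and over OPDA arrays it was -0.09 and 0.03. CDF5 had r = -0.36, RVE6 0.23, SPY 0.20 and TIC -0.01, all inside the range from the 1st to the 99th percentile of all genes compared.

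**Figure D5:**
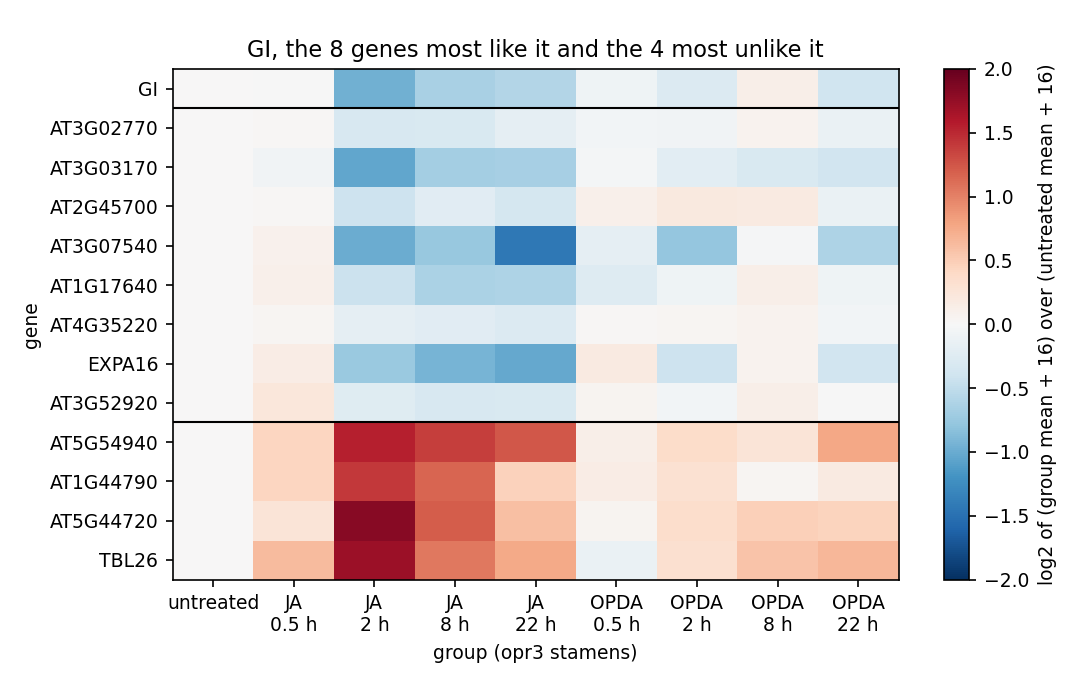
Log2 ratio of each group mean to the untreated mean (16 added to both), on a colour scale from -2 to 2, for GI (top), the 8 genes with the highest r with GI and the 4 with the lowest, across the 9 opr3 groups. The lowest 4 are darkest red at JA 2 h, where GI is darkest blue, and their rows were chosen by r over the same arrays.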

How the data were processed

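The authors deposited linear MAS5 signal intensity values, 1 per probe set, with global scaling of every array to 125 per the labels. The MAS5 name comes from the submitters' processing notes, and its version is not given in the sources used here. The deposited array records (text columns of settings) were used for scan day alone, and 2 arrays have none here. Groups follow the sample titles. GI, the gene lists and the tests were chosen with earlier results of these data known, and the 14 added genes after the annotation, but not their values, had been seen.

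Signals were taken as log2(signal + 16), and 14028 probe sets that reached 50 on 2 or more arrays were fitted with limma 3.58.1 in R 4.3.3 (a mean per group, eBayes with intensity trend, 25 arrays, 16 residual degrees of freedom). P-values are two-sided and adjusted by Benjamini-Hochberg over all tested probe sets within each of 16 comparisons. The number of arrays limits the precision. Genes named are GI, list genes called in any comparison, the other clock genes tested, and the 8 genes most like GI and the 4 most unlike it by r. The planned rule covered list genes called between harvest times or between the agents, so SPY, RVE6 and TIC were named outside it. COR27 and XCT were named after their values were seen. Where a gene had more than 1 probe set, the brightest was used. Names come from the platform annotation and RefSeq. The fit was tested on simulated data. Other settings tried were a pseudocount of 1 or 64, all probe sets without a filter, only those with mean signal 100 or more, quantile normalization, 75th percentile scaling, fits restricted to the groups compared, blocks for replicate number or scan day, and each array left out in turn. Keeping the identical arrays as 2 samples, and median centring, were chosen after seeing the data. Promoter motifs were planned, and no promoter sequence was used here.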

Additional observations from a re-analysis of the deposited data

Results flagged for a closer look

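At 8 h every JA array lay below and both OPDA arrays above the untreated mean of GI. Separation of the agents was common at that time: all JA arrays lay below all OPDA arrays for 23.0% of tested probe sets. The log2 difference of JA minus OPDA was -0.77, and it was not tested because GI was chosen with these values in view. Against untreated, OPDA at 8 h was at 0.12 in the main fit (interval -0.33 to 0.56). It was at -0.11 between the replicate 3 arrays of 1 day and at -0.14 with scan day as a block. Both of the latter rest on 1 OPDA array, replicate 3, and a part of scan day was not tested. COR47 differed between the agents at 22 h by 1.55. COR15A differed at 8 h by -1.51 and at 22 h by -2.01, and COR15B by -1.63 and -1.48, all JA minus OPDA in limma's fit.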

How the results depend on the processing

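GI's JA over untreated difference at 2 h was -0.71 with a pseudocount of 64, which compresses low signals, and its OPDA over untreated difference at 8 h was -0.14 with scan day as a block, in which OPDA 8 h has 1 array. The 1 call among the 16 list genes at OPDA 22 h over untreated became 0 with no filter, quantile normalization, 75th percentile scaling, median centring and the compared groups alone, and the cause was not tested. From 2 to 8 h the count went from 0 to 1 with a filter at mean signal 100, quantile normalization, the replicate block, the scan day block and the identical arrays kept as 2. From 8 to 22 h it went from 1 to 3 with quantile normalization and the replicate block, and to 2 with the scan day block and the compared groups alone.

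Leaving out single arrays moved GI's JA over untreated difference between -0.27 and 0.23 at 0.5 h and between -1.25 and -0.78 at 2 h, and JA over OPDA between -0.17 and 0.33 at 0.5 h and between -0.97 and -0.50 at 2 h. The counts ran from 0 to 1 for OPDA 22 h over untreated, 0 to 1 from 2 to 8 h and 1 to 2 from 8 to 22 h. Where this left JA 0.5 h or OPDA 8 h with 1 array, that array was assumed to vary like the other groups. Over 11 alternatives GI's JA over OPDA difference ran from -0.84 to -0.50 at 2 h and from -0.86 to -0.58 at 8 h. Counts over all probe sets moved by over 1.5 times in 23 of 176 pairs of comparison and setting, and in 21 of 112 with an array left out.

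Over 93 same-numbered pairs of arrays from different groups the median correlation of deviations from group means was 0.28, against -0.17 for pairs with different numbers, so shared deviations were present. Since 16 of the 93 were at or under 0.1 and the labels state no shared source, the numbers were not taken to pair the samples. The errors of the main fit therefore include these shared deviations. With a block for replicate number, calls over all probe sets rose or stayed equal in every comparison. They went from 266 to 466 for JA over OPDA at 2 h, and from 1628 to 2791 for OPDA 22 h over untreated.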
